A study of Mus musculus with 6 samples.

Results

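The transcription factor ATF4, its target genes and the cytosolic aminoacyl-tRNA synthetases were examined in isolated hepatocytes of mice, the cells that carry out most of the metabolism of the liver. The set was a list of 39 gene symbols, 19 for ATF4 and genes it is known to activate and 20 for the synthetases, and all 39 were found among the 55487 genes of the count tables. The 3 C75S libraries came from mice homozygous for AEG-1-C75S, in which a serine stands at the cysteine of AEG-1 that carries a palmitoyl group, and the 3 WT libraries from mice with wild-type AEG-1. AEG-1 is a membrane protein of the endoplasmic reticulum that mice encode in *Mtdh*. Both genotypes were bred from heterozygotes, the mice were adults of 6 to 8 weeks, RNA was taken 48 h after the hepatocytes were isolated, and the treatment label is Control throughout. Nothing in the labels ties a library to a mouse of its own, so the tests below measure the spread between libraries, which may be technical.

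ATF4 is the effector of the integrated stress response. When a kinase such as GCN2 or PERK phosphorylates the initiation factor eIF2, most translation slows while *Atf4* mRNA is translated more, so ATF4 protein can rise with little change in its mRNA. ATF4 binds DNA as a dimer with C/EBP and related factors and activates genes for amino acid uptake, amino acid synthesis, tRNA charging and feedback control. The synthetases attach each amino acid to its tRNA, and many of the cytosolic ones are themselves activated through ATF4. In hepatocytes this programme responds to amino acid supply and to load on the endoplasmic reticulum.

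Between 16944723 and 21044292 reads were counted to genes in each library. Hepatocyte markers summed to between 79940 and 93170 counts per 1000000 (CPM) in C75S and between 89020 and 97360 CPM in WT. Most of this was *Alb*, at 55643 to 66472 CPM in C75S and 63097 to 70067 CPM in WT (log2 fold change -0.15, edgeR adjusted p = 0.347). Of the 11 hepatocyte markers 3 were called at an edgeR adjusted p-value under 0.05. Over all 12741 genes tested the share called was 3.11%, to be read beside each marker list here. *Apoa2* (log2 fold change 0.45, edgeR adjusted p = 2.91e-05) and *Fgb* (0.32, 0.00112) were higher in C75S and *Ahsg* (-0.22, 0.0341) was lower. Of 12 markers of Kupffer cells and macrophages, 10 stayed under 1 CPM in every library. The other two were *Csf1r* at up to 1.44 CPM and *Cd68*, a lysosomal protein, at 94.9 to 138 CPM, which made up most of the summed 97.5 to 141 CPM in C75S and 104 to 135 CPM in WT. Of 8 markers of lymphocytes and other blood cells, 6 were at 0 counts throughout, among them *Cd3e* of T cells and *Nkg7* of natural killer cells. The list summed to at most 0.474 CPM in C75S and 0.195 CPM in WT, from *Ptprc* and *Cd79a*. The 8 cholangiocyte markers summed to 180.4 to 234 CPM in C75S and to 160.4 to 168 CPM in WT. *Cftr* was at 0 in all libraries. *Krt19*, the 1 called of the 5 tested, was higher in C75S (log2 fold change 0.80, edgeR adjusted p = 0.00151). Endothelial markers summed to 39.4 to 50.45 CPM in C75S and 38.1 to 47.3 CPM in WT, mostly from *Stab2* (log2 fold change -0.09). Of the 8 tested endothelial markers 7 had values above 0 (median 0.37) and 0 were called. Stellate cell markers summed to 58.1 to 74.6 CPM in C75S and 72.3 to 93.96 CPM in WT, nearly all from *Reln*. *Acta2*, the 1 called of the 5 tested among them, was higher in C75S (log2 fold change 0.82, edgeR adjusted p = 0.0255). The part of these differences in the results was not tested, and in bulk RNA fewer cells of a type and less RNA per cell cannot be told apart. *Mtdh* was at 212, 192 and 196 CPM in C75S and at 198, 201 and 191 CPM in WT (log2 fold change 0.02, edgeR adjusted p = 0.909), which does not read the altered codon.

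ATF4 dimers bind the C/EBP-ATF response element, whose core was searched as TGATGNAA on both strands. RefSeq promoter windows (GRCm38.p6, 250 bases before to 50 bases after the annotated start) were matched by symbol for 30 of the 39 genes, 17 of the ATF4 group and 13 synthetases. The motif stood in the windows of 9 of these 30 genes, namely *Asns*, *Trib3*, *Chac1*, *Nupr1*, *Aars*, *Gars*, *Iars*, *Tars* and *Yars*. Among all 27025 genes with such a window, 4.51% held it. A match is a description of letters and not evidence of a bound site. The stretches below show the motif in the 6 of the 9 genes with the smallest p-value between genotypes, so that the element can be read beside the expression values, and capitals mark the motif or its reverse complement TTNCATCA on the strand of the gene.
Chac1: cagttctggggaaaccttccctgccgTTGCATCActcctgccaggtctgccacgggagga
Trib3: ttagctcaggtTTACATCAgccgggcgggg
Yars: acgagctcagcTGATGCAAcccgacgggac
Aars: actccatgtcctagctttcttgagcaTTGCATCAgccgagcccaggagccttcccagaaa
Asns: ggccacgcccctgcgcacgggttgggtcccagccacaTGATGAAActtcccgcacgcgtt
Nupr1: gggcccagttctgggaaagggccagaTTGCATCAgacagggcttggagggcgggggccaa
The stretch of *Chac1* is chr2:119351023-119351082 on the plus strand, that of *Trib3* chr2:152344028-152344057 on the minus strand and that of *Yars* chr4:129189895-129189924 on the plus strand. The stretch of *Aars* is chr8:111033704-111033763 on the plus strand, that of *Asns* chr6:7693210-7693269 on the minus strand and that of *Nupr1* chr7:126625547-126625606 on the minus strand. Counted from the RefSeq start, the motif began at base -193 in *Chac1*, -112 in *Aars*, -110 in *Nupr1*, -23 in *Asns*, 4 in *Yars* and 15 in *Trib3*. The window of *Aars* held a further match at base 10, outside the printed stretch. *Chac1*, *Aars* and *Nupr1* thus held the same TTGCATCA form on the gene strand. So did *Iars* and *Tars*, whose stretches are not printed, and *Yars* held its reverse complement.

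Levels were compared between genes per length, as transcripts per 1000000 (TPM). In WT the most abundant genes of the ATF4 group were *Atf5* at 936 TPM and *Atf4* at 426 TPM. *Eif4ebp1*, a repressor of cap-dependent translation, followed at 282 TPM and *Slc3a2*, the heavy chain of several amino acid exchangers, at 267 TPM. *Shmt2*, the mitochondrial serine hydroxymethyltransferase, stood at 244 TPM, above *Asns* (asparagine synthetase) at 92.1 TPM and *Trib3* (a pseudokinase that feeds back on ATF4) at 68.3 TPM. At the other end were *Slc7a5*, the light chain LAT1 that pairs with the product of *Slc3a2*, at 15.9 TPM, *Phgdh* at 7.70 TPM and *Stc2* at 0.42 TPM. With principal-transcript lengths *Slc3a2* came next after *Atf4* at 386 TPM, ahead of *Shmt2* at 247 TPM and *Eif4ebp1* at 231 TPM, while *Atf5* and *Atf4* stayed first and *Slc7a5*, *Phgdh* and *Stc2* last. *Slc3a2* exceeded *Slc7a5* by 13.9 to 18.5 times over the 6 libraries (30.9 times in WT when lengths of principal transcripts replaced those of all annotated exons).

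**Figure D1:**
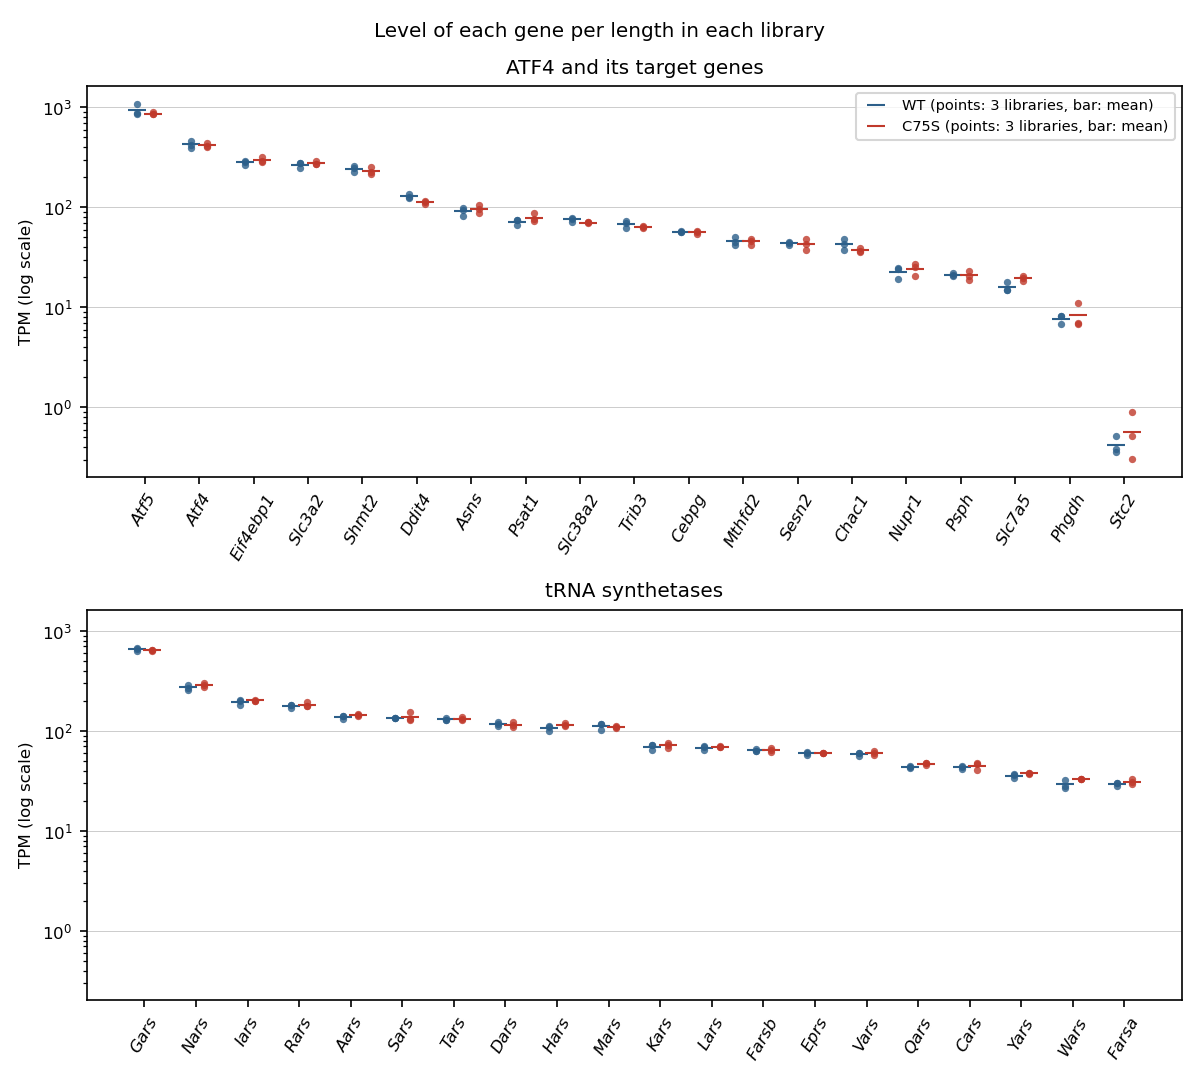
TPM on a log axis for the 19 genes of the ATF4 group (top) and the 20 synthetases (bottom), each ordered by its mean over 6 libraries, with WT in blue and C75S in red; points are libraries and bars the means of 3. Genes span from 0.42 TPM (*Stc2*) to 936 TPM (*Atf5*) in WT, while the genotypes of each gene lie close together on this scale.

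The synthetases covered a narrower range, from 29.4 to 653 TPM in WT, with a median of 88.96 TPM against 68.3 TPM in the ATF4 group and 15.4 TPM over the 12741 genes tested. *Gars*, the glycyl-tRNA synthetase, was the highest at 653 TPM, followed by *Nars* (asparaginyl) at 272 TPM, *Iars* (isoleucyl) at 195 TPM and *Rars* (arginyl) at 177 TPM. *Farsa*, *Wars* and *Yars* were the lowest, at 29.4, 29.4 and 35.7 TPM. The positions of *Eprs*, *Dars*, *Qars* and others in the middle depended on the length used: *Eprs* had 59.8 TPM with all annotated exons and 164 TPM with its principal transcript. *Gars* and *Nars* kept the first places with both lengths. *Farsb* exceeded *Farsa*, which encodes the other subunit of the phenylalanyl enzyme, by 1.87 to 2.36 times, but by 1.13 times in WT with principal transcripts. The 17 mitochondrial synthetases had a median of 13.5 TPM in WT. In 16 of 16 pairs for the same amino acid the cytosolic gene was the higher one, by a median of 5.87 times. The ratio ran from 1.48 times for *Yars* over *Yars2* to 36.4 times for *Nars* over *Nars2*. *Eprs*, which charges both glutamate and proline tRNAs, enters with *Ears2* and with *Pars2*, and *Fars2* was not paired. With principal transcripts the cytosolic gene was again higher in 16 of 16 pairs, by a median of 7.43 times. Single ratios depended on the length, such as 3.35 or 1.59 times for *Lars* over *Lars2* and 10.5 or 27.4 times for *Eprs* over *Pars2*.

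None of the 39 genes passed an adjusted p-value of 0.05 between C75S and WT, while 396 of 12741 genes tested did (3.11%; edgeR quasi-likelihood test, Benjamini-Hochberg over all genes). DESeq2 and limma-voom also called 0 of the 39. Over all genes, 1.74% were called higher and 1.37% lower in C75S. Before adjustment 7 of the 39 had a p-value under 0.05 (17.9%), against 13.4% of all genes tested. All C75S libraries were above all WT libraries for 4 of the 39, against 9.02% of all genes, and below them for 2, against 8.96%. All 39 passed the filter on low counts. The 95% intervals of 38 of the 39 log2 fold changes lay inside a 1.5-fold change in either direction, and those of 32 inside a 1.2-fold change. *Stc2* was the exception to the first statement, with an interval from -0.43 to 1.33. These intervals are for single genes and are not adjusted for their number.

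**Figure D2:**
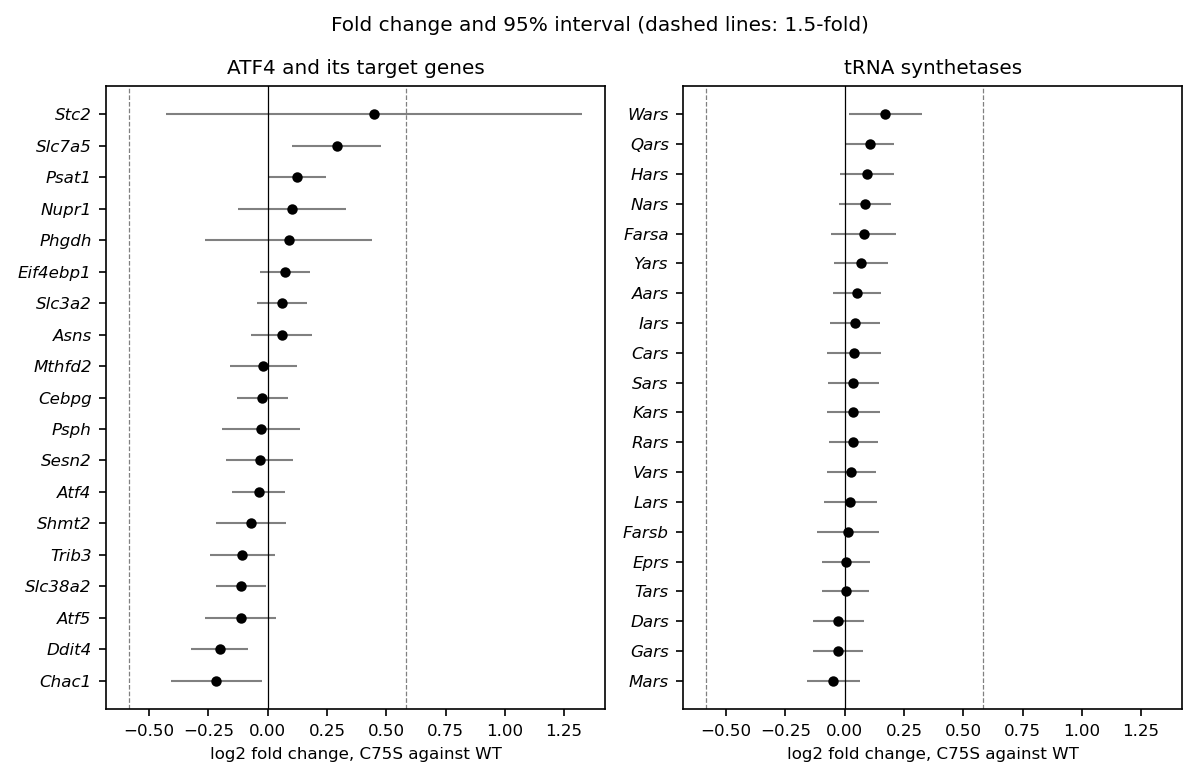
Log2 fold change of C75S against WT (points) with its 95% interval (lines) for the ATF4 group (left) and the synthetases (right), from the edgeR fit over all genes; the dashed lines mark 1.5-fold. Estimates run from -0.22 (*Chac1*) to 0.45 (*Stc2*) on the left and from -0.05 (*Mars*) to 0.17 (*Wars*) on the right.

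*Atf4* itself (ENSMUSG00000042406, GRCm38 chromosome 15, plus strand, 80255184 to 80257541) was at 342, 324 and 327 CPM in C75S and at 369, 336 and 315 CPM in WT. The C75S values lay inside the range of the WT values (log2 fold change -0.04, SE 0.05, edgeR adjusted p = 0.83). *Atf5*, a related factor whose mRNA is also translated under eIF2 phosphorylation, was at 581, 578 and 590 CPM in C75S and at 728, 588 and 576 CPM in WT. WT replicate 1 stood above the other 5 libraries, and without it the log2 fold change went from -0.11 to 0.00321. *Cebpg*, a dimer partner of ATF4, ranged from 101 to 112 CPM over all 6 libraries (log2 fold change -0.02, edgeR adjusted p = 0.911).

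Among the genes of amino acid transport and asparagine synthesis, *Slc7a5* (chromosome 8, 121881150 to 121907694) differed most. It was at 25.0, 23.1 and 25.1 CPM in C75S and at 18.6, 22.5 and 18.8 CPM in WT. The C75S libraries all stood above the WT libraries, with WT replicate 2 nearest to them. The log2 fold change was 0.29 (SE 0.09, 95% interval 0.10 to 0.48), which missed the threshold (edgeR adjusted p = 0.0941) and passed it only without WT replicate 2 (0.0469), among the 15 alternatives. Its partner *Slc3a2* was at 340, 325 and 334 CPM in C75S and at 327, 332 and 299 CPM in WT, with overlap. *Slc38a2*, a sodium-coupled carrier of neutral amino acids, had a log2 fold change of -0.11 (unadjusted p = 0.0405, edgeR adjusted p = 0.334), and *Asns* one of 0.06, with 94.3, 87.7 and 84.3 CPM in C75S and 87.1, 91.5 and 76.8 CPM in WT.

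The enzymes that make serine and glycine and feed the one-carbon pool differed by little. *Psat1*, the phosphoserine aminotransferase, was at 121, 109.9 and 108 CPM in C75S and at 107, 108 and 96.2 CPM in WT. The groups did not overlap but nearly touched (108.3 against 108.0 CPM), with a log2 fold change of 0.13 (unadjusted p = 0.0385, edgeR adjusted p = 0.328). It was 0.0735 without C75S replicate 1 and 0.0746 without WT replicate 3. *Psph*, *Shmt2* and *Mthfd2* had log2 fold changes of -0.03, -0.07 and -0.02, each with overlapping groups. *Phgdh*, the first enzyme of the pathway, was low in these hepatocytes, at 9.07, 5.79 and 5.94 CPM in C75S and 6.84, 5.70 and 6.89 CPM in WT. Its value is uncertain, since 8 annotated pseudogenes match its transcript at 95.3% to 98.7% identity and reads that fit several places were not counted.

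Among the 7 genes of feedback and growth restraint, 2 had all their C75S values below all their WT values. These were also the only 2 of the 39, and over all genes tested the share was 8.96%. *Ddit4* (chromosome 10, 59949669 to 59951834), which encodes the mTORC1 inhibitor REDD1, was at 66.0, 64.2 and 69.1 CPM in C75S and at 72.7, 81.1 and 75.4 CPM in WT. Its log2 fold change was -0.20 (SE 0.06, 95% interval -0.32 to -0.08), and its edgeR adjusted p-value of 0.0563 was the smallest of the 39. It passed 0.05 with no filter beyond 1 count (0.0315) and without WT replicate 1 (0.0351), and not in the other 13 alternatives. *Chac1*, a glutathione-degrading enzyme and one of the genes with the ATF4 motif printed above, was at 20.8, 19.8 and 20.6 CPM in C75S and at 26.6, 23.7 and 20.9 CPM in WT. WT replicate 3 was just above the highest C75S library (log2 fold change -0.22, SE 0.09, edgeR adjusted p = 0.279), and without WT replicate 1 the value was -0.125.

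The other genes of this kind overlapped between genotypes. *Trib3* was at 45.7, 44.1 and 46.9 CPM in C75S and at 49.9, 52.0 and 45.3 CPM in WT (log2 fold change -0.11, edgeR adjusted p = 0.525). *Sesn2*, a leucine sensor that restrains mTORC1, had a log2 fold change of -0.03, *Eif4ebp1* one of 0.07 and *Nupr1*, a stress-induced chromatin protein, one of 0.10 (0.000754 without WT replicate 3). *Stc2*, a secreted glycoprotein, was at 0.52, 0.90 and 1.60 CPM in C75S and 0.90, 0.63 and 0.68 CPM in WT, so a difference was not detectable at this depth. Over the 19 genes of the ATF4 group the log2 fold change was above 0 for 8 and below 0 for 11, with a median of -0.02, against 49.1% above 0 and a median of -0.003 over all genes tested.

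Of the 20 synthetases 17 had a log2 fold change above 0, against 49.1% of all genes tested, with a median of 0.04 and a range from -0.05 to 0.17. The direction was not particular to them. Values above 0 were also found for 14 of the 17 mitochondrial synthetases and 12 of the 14 genes in the eIF2 list read below. The count among the 20 synthetases was 17 under each scaling tried and between 13 (without WT replicate 1) and 18 when single libraries were left out. None was called in any of the 15 alternatives. The synthetases of the multisynthetase complex, a cytosolic assembly of 8 of these gene products, had a median of 0.03, and the 12 outside it a median of 0.05. The 12 often listed as ATF4 targets had a median of 0.04.

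*Wars* (chromosome 12, 108860030 to 108894174), the tryptophanyl enzyme, which is also known to respond to interferon, had the largest value among the synthetases. It was at 37.6, 38.1 and 39.96 CPM in C75S and at 37.7, 33.2 and 31.7 CPM in WT. WT replicate 1 lay within the C75S range (log2 fold change 0.17, SE 0.08, edgeR adjusted p = 0.296). *Qars*, the glutaminyl enzyme, was at 103, 105 and 105 CPM in C75S and at 96.2, 95.6 and 98.8 CPM in WT. Its groups did not overlap (log2 fold change 0.11, unadjusted p = 0.0445, edgeR adjusted p = 0.349). *Aars*, the alanyl enzyme, was at 445, 448 and 457 CPM in C75S and at 415, 444 and 443 CPM in WT, with no overlap but a narrow gap, and its exons overlap those of *Exosc6* on the same strand. *Gars* was at 662, 672 and 690 CPM in C75S and at 666, 708 and 693 CPM in WT (log2 fold change -0.03, edgeR adjusted p = 0.866).

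*Nars* was at 435, 404 and 437 CPM in C75S and at 376, 425 and 401 CPM in WT, and *Hars* at 91.1, 99.1 and 96.2 CPM in C75S and 93.0, 91.3 and 84.0 CPM in WT. Both overlapped between genotypes, with log2 fold changes of 0.09 each. *Tars* was among the steadiest, from 257 to 273 CPM over the 6 libraries (log2 fold change 0.00485, edgeR adjusted p = 0.977). *Cars*, *Dars*, *Eprs*, *Farsa*, *Farsb*, *Iars*, *Kars*, *Lars*, *Mars*, *Rars*, *Sars*, *Vars* and *Yars* had log2 fold changes between -0.05 and 0.08. *Iars* shares 37.3% of its longest transcript, at 96.0% identity, with the pseudogene *Gm4849*. The coefficient of variation between libraries of a genotype had a median of 2.98% in C75S and 4.44% in WT over the synthetases, of 4.70% and 7.06% over the ATF4 group, and of 6.61% and 7.09% over all genes tested.

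**Figure D3:**
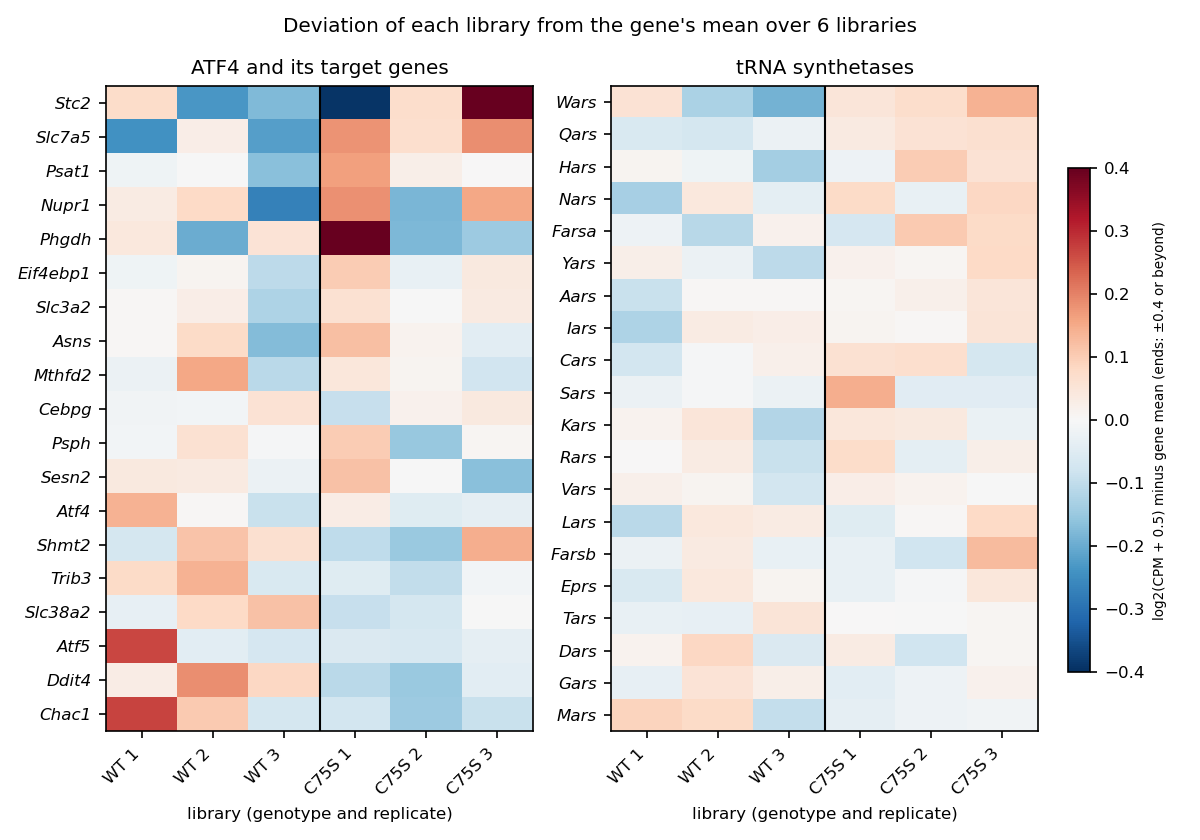
Deviation of each library from the mean of the gene over 6 libraries, as log2(CPM + 0.5), for the ATF4 group (left) and the synthetases (right), with genes ordered by fold change and WT left of the line. WT replicate 1 is high for *Atf5* and *Chac1*, C75S replicate 1 for *Phgdh*, and no library is high or low for every gene.

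Single libraries leaned one way across many of these genes. C75S replicate 1 was the highest of the 6 libraries for 8 of the 19 genes of the ATF4 group, and WT replicate 3 the lowest for 8. Over all genes tested these shares were 17.7% and 16.9%. Among the synthetases C75S replicate 3 was the highest library for 9 of 20, and WT replicate 3 and WT replicate 1 the lowest for 7 and 6, against 15.7%, 16.9% and 21.1% over all genes. The median deviation from the gene means stayed between -0.07 and 0.05 on the log2 scale in every library for both groups. The leaning therefore amounted to a few percent of the level. For the synthetases this was of the size of their median log2 fold change between genotypes, 0.037. Their median deviation was 0.047 in C75S replicate 3, -0.023 in WT replicate 1 and -0.027 in WT replicate 3. The part of this leaning in the direction of their fold changes was not tested.

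Upstream genes were read from a fixed list of eIF2 kinases, eIF2 and eIF2B subunits and the eIF2 phosphatase. Of its 14 genes 0 were called (3.11% of all genes), and 0 had an unadjusted p-value under 0.05 (13.4% of all genes). *Eif2b1*, a subunit of the exchange factor eIF2B, had the smallest p-value, at 28.9, 27.3 and 32.2 CPM in C75S and 25.4, 27.8 and 27.3 CPM in WT (log2 fold change 0.14, edgeR adjusted p = 0.511). Of 13 partner and related bZIP factors, 0 were called. *Jun* was at 168, 167 and 168 CPM in C75S and 184, 178 and 186 CPM in WT, and *Nfe2l2*, which encodes NRF2, had a log2 fold change of -0.11 against -0.12 for *Jun* (edgeR adjusted p = 0.277 and 0.205). Both were lower in every C75S library, without passing the threshold. Of the 13 factors, 2 thus had all C75S libraries below all WT libraries and 0 had them above. Over all genes these shares were 8.96% and 9.02%, so such a separation alone does not set these factors apart.

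Among 35 further ATF4 target genes outside the set, 34 were tested and 3 were called, all lower in C75S. Over all genes 1.37% were called lower. The list was drawn up with earlier results of these data known, so its count cannot be weighed against that share. *Fgf21*, a hepatocyte hormone that is also a PPAR-alpha target, fell from 5.18, 3.70 and 4.42 CPM in WT to 2.53, 2.37 and 1.93 CPM in C75S (log2 fold change -0.96, SE 0.22, edgeR adjusted p = 0.0122). *Gdf15*, a stress hormone, fell from 123, 119 and 113.09 CPM in WT to 94.5, 97.0 and 113.04 CPM in C75S, where C75S replicate 3 and WT replicate 3 nearly met (log2 fold change -0.22, SE 0.06, edgeR adjusted p = 0.0438). *Cdkn1a*, which encodes the cyclin-dependent kinase inhibitor p21, fell from 393, 375 and 359 CPM in WT to 322, 328 and 345 CPM in C75S (log2 fold change -0.18, SE 0.05, edgeR adjusted p = 0.0494). *Gdf15* and *Cdkn1a* are also known p53 targets, so none of the 3 is specific to ATF4.

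The calls of *Gdf15* and *Cdkn1a* lay near the threshold, and that of *Fgf21* lay further from it (edgeR adjusted p = 0.0122). Leaving out any library lowered the count over all genes, to between 201 and 355. The log2 fold changes kept their direction in these fits, from -1.07 to -0.83 for *Fgf21*, -0.31 to -0.18 for *Gdf15* and -0.21 to -0.15 for *Cdkn1a*. *Fgf21* missed the threshold without C75S replicate 3 (0.0531) or WT replicate 1 (0.0542). *Gdf15* missed it under DESeq2 (0.0639) and limma-voom (0.0551) and in 5 of the 6 fits without a library, with 0.228 without C75S replicate 1. *Cdkn1a* missed it when C75S replicate 1 or 2 or WT replicate 1 or 2 was left out (at most 0.177), and narrowly under RLE and library-size scaling, limma-voom and unstranded counting (at most 0.0564). *Slc7a3*, an arginine carrier named here after its values were seen, had the lowest estimate at -1.38 (SE 0.51, edgeR adjusted p = 0.174), from 0.40, 0.24 and 0.27 CPM in C75S and 0.66, 1.12 and 0.58 CPM in WT. Over the 34 genes the log2 fold change was above 0 for 20, with a median of 0.01.

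**Figure D4:**
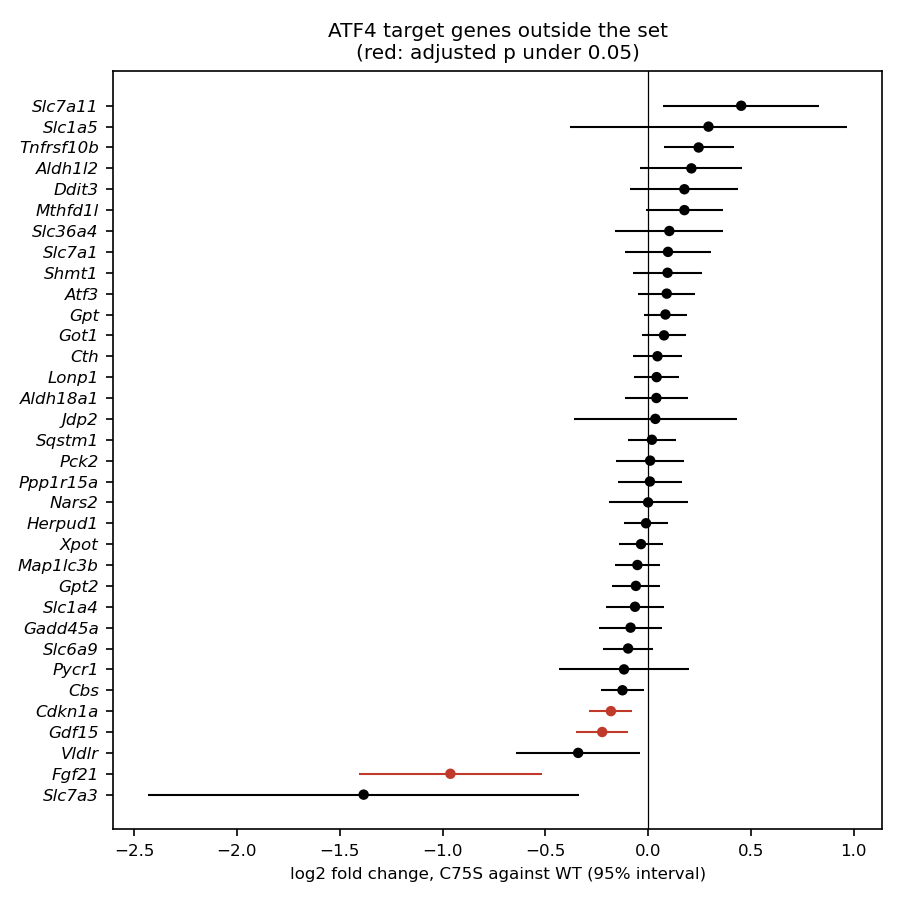
Log2 fold change of C75S against WT with its 95% interval for the 34 tested ATF4 target genes outside the set, in red where the adjusted p-value was under 0.05. *Fgf21* (-0.96), *Gdf15* (-0.22) and *Cdkn1a* (-0.18) are the genes in red, *Slc7a3* (-1.38) has the lowest estimate and a wide interval, and the median is 0.01.

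None of the 17 mitochondrial synthetases, of 10 factors of the multisynthetase complex and of tRNA handling, or of 17 tested genes of amino acid sensing and mTORC1 was called. Unadjusted p-values under 0.05 were found for 2 of 17, 2 of 10 and 1 of 17, against 13.4% of all genes. Of the 17 mitochondrial synthetases, 1 (*Cars2*) had all C75S libraries below all WT libraries and 1 had them above. Over all genes these shares were 8.96% and 9.02%. *Cars2* was lower in every C75S library, at 16.8, 19.6 and 17.01 CPM against 23.3, 20.03 and 19.99 CPM in WT (log2 fold change -0.24, edgeR adjusted p = 0.223), and *Fars2* stood at 0.19 on the log2 scale (edgeR adjusted p = 0.316). *Yrdc*, which makes a tRNA modification, and *Tarsl2*, a relative of *Tars*, had log2 fold changes of 0.17 and 0.19 (edgeR adjusted p = 0.264 and 0.329). *Sesn1*, a relative of *Sesn2*, had one of -0.23 (edgeR adjusted p = 0.15), and *Tsc2*, an inhibitor of mTORC1, one of 0.11 (0.409).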

How the data were processed

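The deposited files hold raw read counts per Ensembl gene, 1 file per library, in the layout of STAR gene counts. The submitters' processing notes list Trim Galore 0.6.6, STAR 2.7.9a, edgeR 3.36.0 and the build GRCm38 (mm10), and the annotation release is not given in the sources used here. The reverse-strand column was used without the summary rows, and reads placed at several loci (17.98% to 18.5% per library) were not counted to genes. Symbols, positions and exon lengths came from GENCODE M21.

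Genes passing filterByExpr (minimum count 10, total 15) were scaled by TMM and tested with edgeR 4.0.16 in R 4.3.3 by a two-sided robust quasi-likelihood test on genotype, adjusted by Benjamini-Hochberg over 12741 genes, threshold 0.05. CPM uses TMM-scaled sizes. TPM divides counts by the union of annotated exons. The standard error is the log2 fold change over the square root of F, and intervals are at 95%. Alternatives were other scalings, DESeq2 1.42.0, limma-voom (limma 3.58.1), other filters, unstranded counts, a replicate block and leaving out each library. Principal-transcript length was chosen after seeing the data. Copies were sought with BLAST 2.17.0 (95% identity over 20% of a transcript). The procedure was tested on simulated data. The members and lists were chosen with earlier results of these data known. Outside the 39 genes, called list genes were named, and otherwise at most 3 of smallest p-value per list.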

Additional observations from a re-analysis of the deposited data

How the results depend on the processing

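Over 584 values of the 39 genes under 15 alternatives, 557 kept their direction and stayed short of the threshold, 3 passed it and 24 changed direction, each of these without a single library. Of the 39, 1 passed with no filter beyond 1 count (*Ddit4*), and 0 to 1 when a library was left out. The count over all genes, 396, ranged from 201 (without WT replicate 2) to 355 when a library was left out, with 246 without WT replicate 3 and 253 without C75S replicate 1. With all libraries kept it ranged from 372 under limma-voom to 573 with no filter beyond 1 count. With at least 1 CPM in 3 libraries *Stc2* was not tested. Leaving out single libraries gave ranges of log2 fold change across 0 for 18 of the genes: -0.00904 to 0.115 for *Asns*, -0.0911 to 0.0259 for *Atf4*, -0.175 to 0.00321 for *Atf5*, -0.0477 to 0.0168 for *Cebpg*, -0.0621 to 0.00934 for *Dars*, -0.022 to 0.0273 for *Eprs*, -0.0504 to 0.0575 for *Farsb*, -0.00607 to 0.0691 for *Iars*, -0.0114 to 0.0706 for *Kars*, -0.0232 to 0.0521 for *Lars*, -0.075 to 0.0598 for *Mthfd2*, -0.144 to 0.209 for *Phgdh*, -0.0885 to 0.0408 for *Psph*, -0.0288 to 0.0701 for *Sars*, -0.102 to 0.0388 for *Sesn2*, -0.0379 to 0.746 for *Stc2*, -0.00982 to 0.0332 for *Tars* and -0.00103 to 0.0476 for *Vars*. For *Lars2* the range was -0.489 to 0.222, with -0.044 under limma-voom. The median of the ATF4 group ranged from -0.0436 to 0.00321 and that of the synthetases from 0.0271 to 0.0486. The causes were not tested.

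Replicate numbers are shared between genotypes, but same-numbered libraries did not deviate together (r of 0.0169, -0.0404 and 0.0254), and not every library correlated best with its own number. With the replicate number as a block, 480 genes and 0 of the 39 were called, and *Lars2* was at -0.0389. A level of 3 counts was worth 0.143 to 0.177 CPM, so *Stc2* and *Slc7a3* rest on few reads.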

Other observations

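A pair of genes was picked out after its values were seen. *Slc7a11*, the cystine carrier that pairs with the product of *Slc3a2*, was at 44.9, 28.3 and 31.2 CPM in C75S and at 24.0, 26.2 and 25.8 CPM in WT. C75S replicate 1 was far above the rest, and every C75S library was above every WT library. The log2 fold change was 0.45 (SE 0.16, edgeR adjusted p = 0.265), and 0.232 without C75S replicate 1. Over the alternatives the adjusted p-value ran from 1.82e-05 with no filter beyond 1 count to 0.501 without WT replicate 1, and it also passed the threshold without C75S replicate 2 (0.00711).

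*Lars2*, the mitochondrial leucyl-tRNA synthetase, varied more within genotypes than any cytosolic synthetase. It was at 51.7, 56.7 and 122 CPM in C75S and at 48.6, 84.3 and 95.9 CPM in WT, and its log2 fold change had a 95% interval from -1.30 to 1.32.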
